A study of Mus musculus with 8 samples.

Results

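Transcripts of 10 genes of protein folding in the endoplasmic reticulum (ER) were followed in mouse brown fat with and without Hdac3 in adipocytes. The genes were taken by name from the authors' table: Hspa5, Hsp90b1, Calr, Canx, Pdia3, Pdia4, Pdia6, Dnajb9, Hyou1 and Xbp1. All 10 were among the 11234 genes listed, and all 10 passed the filter for testing. Xbp1 encodes a transcription factor and is no chaperone, so the set held 9 chaperones and folding enzymes and 1 of their regulators. The tissue was interscapular brown adipose tissue, the heat-producing depot between the shoulder blades, from male C57BL/6 mice 12 weeks old. They had spent 2 weeks at 29 °C, close to thermoneutrality, and tissue was taken at 5 PM (zeitgeber time 10 h). The 4 control libraries (replicates 11, 12, 13 and 14) came from mice with a floxed Hdac3 gene. The 4 knockout libraries (replicates 4, 5, 19 and 20) carried the same floxed gene and in addition Adiponectin-Cre, a recombinase under an adipocyte promoter, so that other cells of the depot keep the gene. No library without the floxed allele was analysed here. Whether each library is a separate animal is not stated, and p-values therefore measure the spread between these libraries.

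Secreted and membrane proteins fold in the ER with the help of chaperones. Hspa5 (BiP), an Hsp70 of the ER lumen, binds unfolded chains and also holds the stress sensors of the ER inactive. When unfolded chains accumulate, the sensor IRE1 splices Xbp1 mRNA while ATF6 is cut free from the membrane, and the resulting transcription factors raise chaperone genes through short promoter motifs. The third sensor, PERK, slows translation and favours ATF4. This programme is called the unfolded protein response. Adipocytes secrete adiponectin and lipoprotein lipase, both of which fold in the ER.

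RPKM is reads scaled by gene model length and by the reads of the library. Each library had 13619308 to 17986134 reads by the deposited values. Listed genes took 17.1% to 20.1% of them in the controls and 21.4% to 25.0% in the knockouts. Because this share differed between genotypes, values were divided by TMM factors, which centre the bulk of genes, and levels below are TMM-scaled RPKM. Relative to TMM, the median log2 fold change of all genes moved by 0.13 with the library total alone and by -0.12 with the summed reads of listed genes (the listed-gene sum). A difference of that size decided several calls below, so the outcome under all 3 scalings is given. Differences were tested with limma on log2(RPKM + 1), which understates the change of low genes, with Benjamini-Hochberg adjustment over 8764 genes and a threshold of 0.05. Of those genes, 19.4% were called higher and 15.9% lower in the knockout. Hdac3 itself stood at 6.91 to 8.0 in the controls and 2.66 to 3.93 RPKM in the knockouts (two-sided exact permutation p = 0.0286, which is the lowest 4 against 4 can give; limma, adjusted p = 4.34e-05). Of the defining genes of brown adipocytes, Ucp1 was 158.9 ± 40.3 in the controls and 4.01 ± 2.90 RPKM in the knockouts, while Cox8b was 506.7 ± 95.5 and 483.7 ± 31.2 RPKM (SD, n = 4 each). These are 2 of 11 such markers, of which 5 were called higher and 3 lower, as named below.

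Promoter sequences show which of these genes share a stress motif. RefSeq promoters of build GRCm38.p6, running from 250 bases before to 50 bases after the annotated start, were matched by symbol for 9 of the 10 genes. Hyou1 had no entry. This build is later than that of the deposited table (mm9), and the sequences were matched by gene name only. The ER stress element, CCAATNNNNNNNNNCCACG on either strand, was found in 5 of the 9 promoters, those of Hspa5, Hsp90b1, Calr, Canx and Pdia6. It occurred in 0.119% of all 32851 promoters in the table. The matches follow with 20 bases on each side, read 5′ to 3′ along the gene, with the element in capitals. Hsp90b1 held 2 matches. The second of these and that of Calr lie on the opposite strand and read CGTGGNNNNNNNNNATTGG.
Hspa5 (chr2:34772005-34772063, + strand): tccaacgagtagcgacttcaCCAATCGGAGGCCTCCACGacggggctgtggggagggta
Hsp90b1, first match (chr10:86705618-86705676, - strand): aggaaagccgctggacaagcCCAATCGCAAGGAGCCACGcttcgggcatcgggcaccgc
Hsp90b1, second match (chr10:86705513-86705571, - strand): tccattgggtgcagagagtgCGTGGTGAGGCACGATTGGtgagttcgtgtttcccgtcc
Calr (chr8:84847055-84847113, - strand): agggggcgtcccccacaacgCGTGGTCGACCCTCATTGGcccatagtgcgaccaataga
Canx (chr11:50325780-50325838, - strand): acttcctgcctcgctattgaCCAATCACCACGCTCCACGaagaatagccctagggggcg
Pdia6 (chr12:17266471-17266529, + strand): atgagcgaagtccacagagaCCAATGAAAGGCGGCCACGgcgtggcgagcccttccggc

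The other 4 promoters, of Pdia3, Pdia4, Dnajb9 and Xbp1, did not hold these letters in the window. The second form of the element, in which ATTGG and CCACG stand 1 base apart, and the motif TGACGTGG bound by XBP1 and ATF6, both searched on either strand, were in none of the 9. They occurred in 0.0365% and 0.676% of all promoters. The core ACGTG, part of TGACGTGG, was present in Hspa5, Calr, Pdia6 and Dnajb9 and in 19.6% of all promoters. A CCAAT box, which also forms the left part of the ER stress element, was present in 8 of the 9 and in 37.4% of all promoters. The whole windows of Dnajb9 and Pdia4, the genes called higher, and of Pdia3, the gene called lower that has an entry, are shown next, with ACGTG and CCAAT on either strand in capitals. In Dnajb9 the core is read on both strands as one palindrome.
Dnajb9 (chr12:44210019-44210318, - strand): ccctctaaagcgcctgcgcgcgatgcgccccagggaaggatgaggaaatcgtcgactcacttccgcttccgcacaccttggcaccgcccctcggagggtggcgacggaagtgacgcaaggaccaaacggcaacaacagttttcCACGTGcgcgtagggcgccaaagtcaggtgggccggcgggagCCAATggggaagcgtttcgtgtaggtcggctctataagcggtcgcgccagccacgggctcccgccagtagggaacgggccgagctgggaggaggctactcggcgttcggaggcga
Pdia4 (chr6:47813463-47813762, - strand): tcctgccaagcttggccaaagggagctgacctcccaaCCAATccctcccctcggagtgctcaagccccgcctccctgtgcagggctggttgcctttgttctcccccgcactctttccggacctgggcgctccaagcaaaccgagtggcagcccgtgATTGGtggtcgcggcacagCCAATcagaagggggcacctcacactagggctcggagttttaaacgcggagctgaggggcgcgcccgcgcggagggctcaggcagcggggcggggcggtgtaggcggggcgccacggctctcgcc
Pdia3 (chr2:121413652-121413951, + strand): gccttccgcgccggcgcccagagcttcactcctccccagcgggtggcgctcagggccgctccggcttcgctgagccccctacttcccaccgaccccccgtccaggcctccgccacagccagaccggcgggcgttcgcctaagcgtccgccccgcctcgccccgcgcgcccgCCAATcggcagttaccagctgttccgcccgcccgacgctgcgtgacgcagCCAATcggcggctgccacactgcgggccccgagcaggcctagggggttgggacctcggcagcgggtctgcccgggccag

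**Figure D1:**
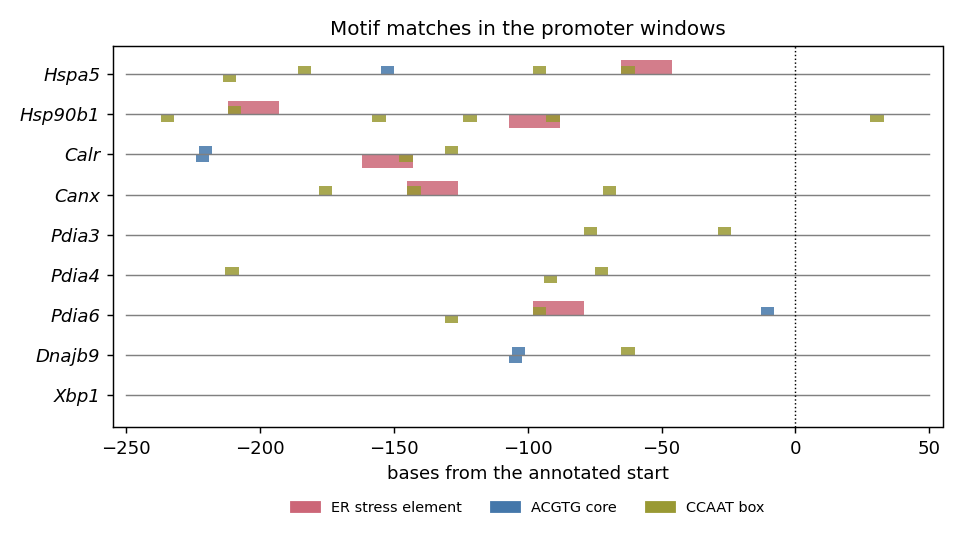
Position of the ER stress element, the ACGTG core and the CCAAT box in 9 promoter windows; the x axis is the distance in bases from the annotated start, boxes above a line lie on the gene's strand and boxes below on the opposite strand. The element is seen in 5 of the 9 windows, before the annotated start in each.

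In control brown fat the 10 genes covered a 10.7-fold range of level, in RPKM and thus per length. Calr stood highest at 29.0 ± 1.79 RPKM, and its values overlapped those of Hspa5 at 26.2 ± 1.33 RPKM, which in turn overlapped those of Hsp90b1 at 23.9 ± 1.27 RPKM (SD, n = 4). Canx at 14.7 RPKM, Pdia6 at 12.1 RPKM and Xbp1 at 10.1 RPKM followed, without overlap between neighbours. Hyou1 at 7.35 RPKM and Pdia4 at 6.87 RPKM overlapped each other. Pdia3 at 5.58 RPKM and Dnajb9 at 2.70 RPKM stood lowest, each apart from its neighbour. In the knockout the range was 7.48-fold, and the order of the means differed: Xbp1 stood above Pdia6, with overlap, and Pdia4 above Hyou1. Dnajb9 at 5.22 RPKM overlapped Hyou1 at 5.08 RPKM, and Pdia3 had the lowest mean at 4.19 RPKM, with values overlapping those of Hyou1. The sum of all 10 was 138.4 ± 1.06 in the controls and 141.4 ± 9.69 RPKM in knockout libraries, with overlap (SD, n = 4 each). As a share of the reads on listed genes, the 10 took 0.189% to 0.194% in control and 0.162% to 0.184% in knockout libraries, lower without overlap, so the comparison of the sum depends on the scaling.

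Of the 10 genes, 2 were called higher (Dnajb9 and Pdia4), 2 lower (Hyou1 and Pdia3), and 6 did not pass. Over all genes 35.3% were called in either direction, and the share among these 10 lay near that background. Their median log2 fold change was 0.06, against 0.01 over all genes tested. Without overlap of the genotypes were 3 higher (Dnajb9, Pdia4 and Canx) and 2 lower (Hyou1 and Pdia3), where 18.8% of all genes lay higher, 16% lower and 34.8% either way without overlap. Between 66 and 1334 reads stood behind each value.

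**Figure D2:**
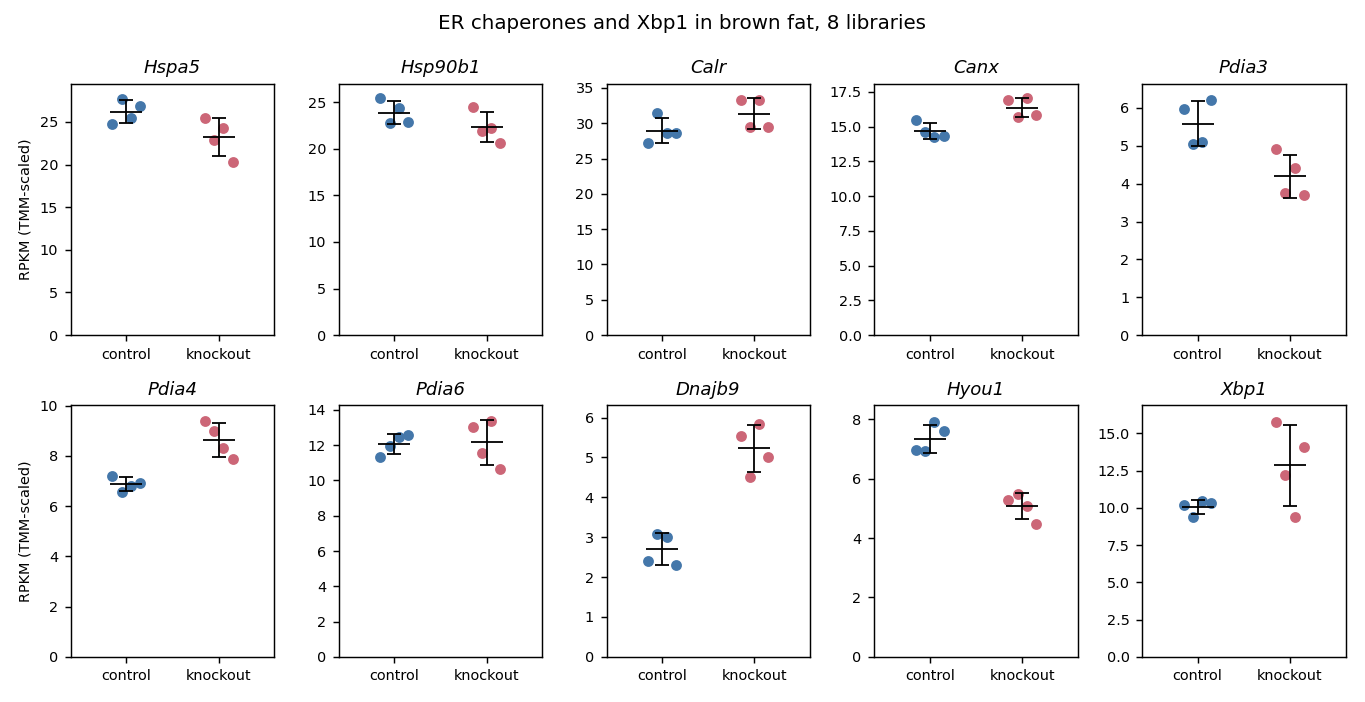
TMM-scaled RPKM (y axis, from 0) of each gene in the 4 control and 4 knockout libraries; points are libraries, long bars the mean and whiskers the SD. Dnajb9 and Pdia4 lie higher and Hyou1 and Pdia3 lower in all knockout libraries, and Xbp1 spreads from 9.40 to 15.8 RPKM in the knockout.

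Of Hspa5 and 2 proteins that act on its cycle, Dnajb9 was called higher, Hyou1 lower, and Hspa5 did not pass. Dnajb9 (ERdj4) is a J-domain co-chaperone that hands unfolded chains to BiP and helps BiP hold IRE1 inactive. Its level was 2.39, 3.09, 3.00 and 2.31 RPKM in control replicates 11, 12, 13 and 14, and 5.55, 4.52, 5.83 and 5.01 RPKM in knockout replicates 4, 5, 19 and 20. Every knockout library stood above every control library, and the knockout mean was 1.94-fold the control mean (log2 fold change 0.75 ± 0.10 SE; limma, adjusted p = 0.000232). It was higher under all 3 scalings, 2.19-fold in RPKM as deposited, and its log2 fold change stood at the 96.0 percentile of all genes tested. These values rest on 66 to 95 reads in control and 138 to 193 reads in knockout libraries, and the spread between control libraries (CV 15%) was close to the 11.4% that counting alone gives.

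Hyou1 (GRP170), a large Hsp70-like protein that frees BiP of its nucleotide, moved the other way. Control libraries held 6.97, 6.94, 7.90 and 7.59 RPKM and knockout libraries 5.28, 5.49, 5.08 and 4.47 RPKM, in the same order of replicates. No value overlapped, and the control mean was 1.45-fold the knockout mean (log2 fold change -0.46 ± 0.07 SE; limma, adjusted p = 0.000964). Hyou1 was called lower under all 3 scalings. Hspa5 stood at 24.8, 27.7, 25.5 and 26.9 in the controls and 25.5, 22.8, 24.4 and 20.4 RPKM in knockout libraries. The genotypes overlapped and the gene did not pass (log2 fold change -0.17, 95% interval -0.35 to 0.01; limma, adjusted p = 0.132). Its difference was 0.01 with the library total alone and -0.32, then called lower, with the listed-gene sum.

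Of the lectin chaperones and their partner enzyme, only the enzyme, Pdia3, was called, and it was lower. Calr (calreticulin, soluble) and Canx (calnexin, membrane-bound) hold glycoproteins while these fold, and recruit Pdia3 (ERp57), which makes and breaks disulfide bonds in their clients. Pdia3 stood at 5.97, 5.05, 5.10 and 6.20 RPKM in control replicates 11 to 14 and at 4.91, 3.77, 4.41 and 3.69 RPKM in knockout replicates 4, 5, 19 and 20. The lowest control and highest knockout values, 5.05 and 4.91 RPKM, lay close together without overlap, and Pdia3 was called lower (log2 fold change -0.34 ± 0.09 SE; limma, adjusted p = 0.0171). With the library total alone it was not called (adjusted p = 0.150) and the genotypes overlapped. Canx stood at 15.5, 14.6, 14.2 and 14.3 in the controls and 16.9, 15.7, 17.0 and 15.8 RPKM in knockout libraries. All knockout values were above all control values by a narrow margin, yet Canx did not pass (log2 fold change 0.15, 95% interval 0.01 to 0.29; limma, adjusted p = 0.0889). Calr stood at 27.2 to 31.5 in the controls and 29.4 to 33.3 RPKM in knockout libraries, with overlap (log2 fold change 0.11, 95% interval -0.06 to 0.28; limma, adjusted p = 0.286). With the library total alone both lectins were called higher.

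The remaining folding enzymes were Pdia4, Pdia6 and Hsp90b1. Pdia4 (ERp72), a disulfide isomerase with more thioredoxin domains than most of the family, stood at 7.22, 6.57, 6.79 and 6.91 in the controls and 9.39, 9.0, 8.31 and 7.88 RPKM in knockout libraries. All knockout libraries lay above all controls, with a 1.26-fold higher mean (log2 fold change 0.29 ± 0.07 SE; limma, adjusted p = 0.00824). With the listed-gene sum Pdia4 kept its direction but was not called (adjusted p = 0.119). Pdia6 (P5), an isomerase that binds BiP, spanned 11.3 to 12.6 in the controls and 10.7 to 13.4 RPKM in knockout libraries. Its genotypes overlapped (log2 fold change 0.00, 95% interval -0.18 to 0.18; limma, adjusted p = 0.976). Hsp90b1 (GRP94), the Hsp90 of the ER that folds integrins and Toll-like receptors, spanned 22.8 to 25.5 in the controls and 20.6 to 24.5 RPKM in knockout libraries. It did not pass either (log2 fold change -0.10, 95% interval -0.26 to 0.07; limma, adjusted p = 0.340).

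Xbp1, the factor that raises many of these genes once IRE1 has spliced its mRNA, was the most variable in the knockout. Control libraries held 10.2, 9.38, 10.4 and 10.3 RPKM. Knockout replicates 4, 5, 19 and 20 held 15.8, 12.2, 9.40 and 14.1 RPKM, so that replicate 19 lay among the controls and the other 3 above them. Over all 4 knockout libraries the mean was 1.27-fold the control mean and the gene did not pass (log2 fold change 0.30 ± 0.13 SE; limma, adjusted p = 0.0941). Without knockout replicate 19 the mean was 1.39-fold and the gene was called higher (log2 fold change 0.43; limma, adjusted p = 0.00626). That omission was chosen for its low value. Without any other single library Xbp1 did not pass (limma, adjusted p from 0.129 to 0.220). By FDR, the authors' deposited table had it past the same threshold (log2 fold change 0.33, FDR 0.0453). The knockout CV was 21.2%, where counting alone gives 4.38%, and it was the widest of the 10 genes. A value per gene does not separate spliced from unspliced Xbp1 mRNA.

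**Figure D3:**
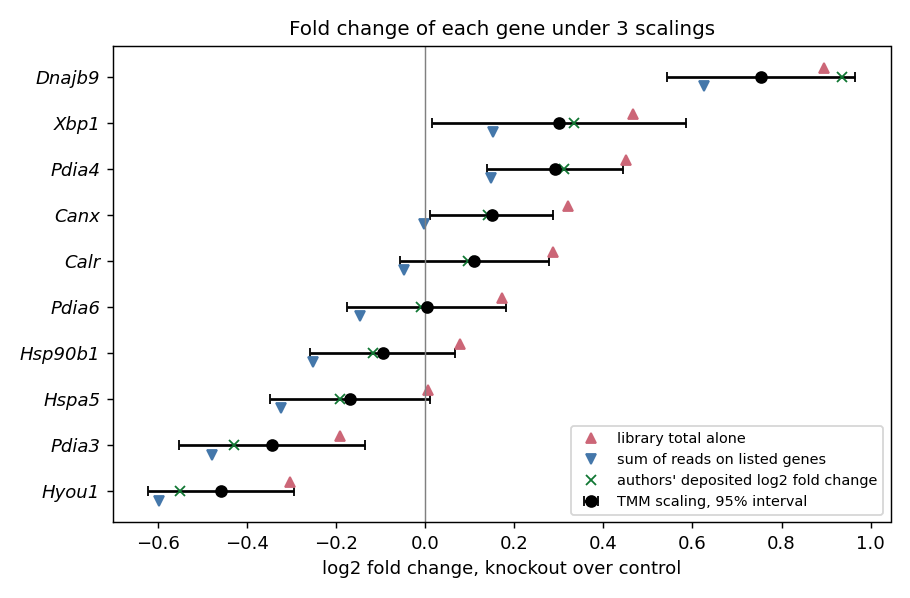
Log2 fold change of knockout over control (x axis) for each gene: black points with 95% intervals are the TMM-scaled fit, triangles the same fit with other scalings, crosses the authors' deposited values. Dnajb9 and Hyou1 keep their side of 0 and their call under all 3 scalings, while Hspa5, Hsp90b1, Calr, Canx and Pdia6 lie on both sides of 0.

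The number of calls followed the scaling. With the library total alone 5 of the 10 were higher (Calr, Canx, Pdia4, Dnajb9 and Xbp1) and 1 lower (Hyou1), against 31.9% and 7.17% of all genes and 39.1% either way. Without overlap were 4 higher and 1 lower, against 30% and 7.1% of all genes and 37.1% either way. With the listed-gene sum 1 was higher (Dnajb9) and 4 lower (Hspa5, Hsp90b1, Pdia3 and Hyou1), against 12.4% and 30.2% of all genes and 42.7% either way. Without overlap were again 1 higher and 4 lower, against 11% and 28.5% and 39.6% either way. The authors' deposited table put 3 of the 10 higher (Pdia4, Dnajb9 and Xbp1) and 2 lower (Pdia3 and Hyou1) at FDR below 0.05, where 17% and 16.6% of its genes were called and 33.6% either way.

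A ratio of 2 genes in the same library does not depend on the scaling, and each of the other 9 genes was therefore set against Hspa5. Of these 9 ratios, 5 were higher and 1 lower in all knockout libraries, and 3 overlapped. Over all other genes tested, 33.8% of ratios to Hspa5 did not overlap between genotypes in either direction, and shares by direction were not counted. Hspa5 itself was lower in the mean under TMM scaling, which lifts every ratio to it. Pdia6, with a log2 fold change of 0.00, was among the 5. The split of 5 higher and 1 lower is therefore not read as a result about these genes. Dnajb9 stood at 0.0966, 0.111, 0.118 and 0.0859 of Hspa5 in control replicates 11 to 14 and at 0.217, 0.198, 0.239 and 0.246 in knockout replicates 4, 5, 19 and 20. This ratio was 2.19-fold higher in the knockout, with no overlap. The ratio of Pdia4 was 0.263 ± 0.0226 in control and 0.373 ± 0.0237 in knockout, and that of Canx 0.561 ± 0.0447 and 0.707 ± 0.0499. Calr was at 1.10 ± 0.0316 and 1.35 ± 0.0699 of Hspa5, and Pdia6 at 0.462 ± 0.0244 and 0.522 ± 0.0197 (SD, n = 4 each). These ratios are described by overlap, with no test. The ratio of Hyou1 was 0.281 ± 0.0242 in control and 0.219 ± 0.0154 in knockout libraries, also without overlap. Those of Hsp90b1, Pdia3 and Xbp1 overlapped.

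**Figure D4:**
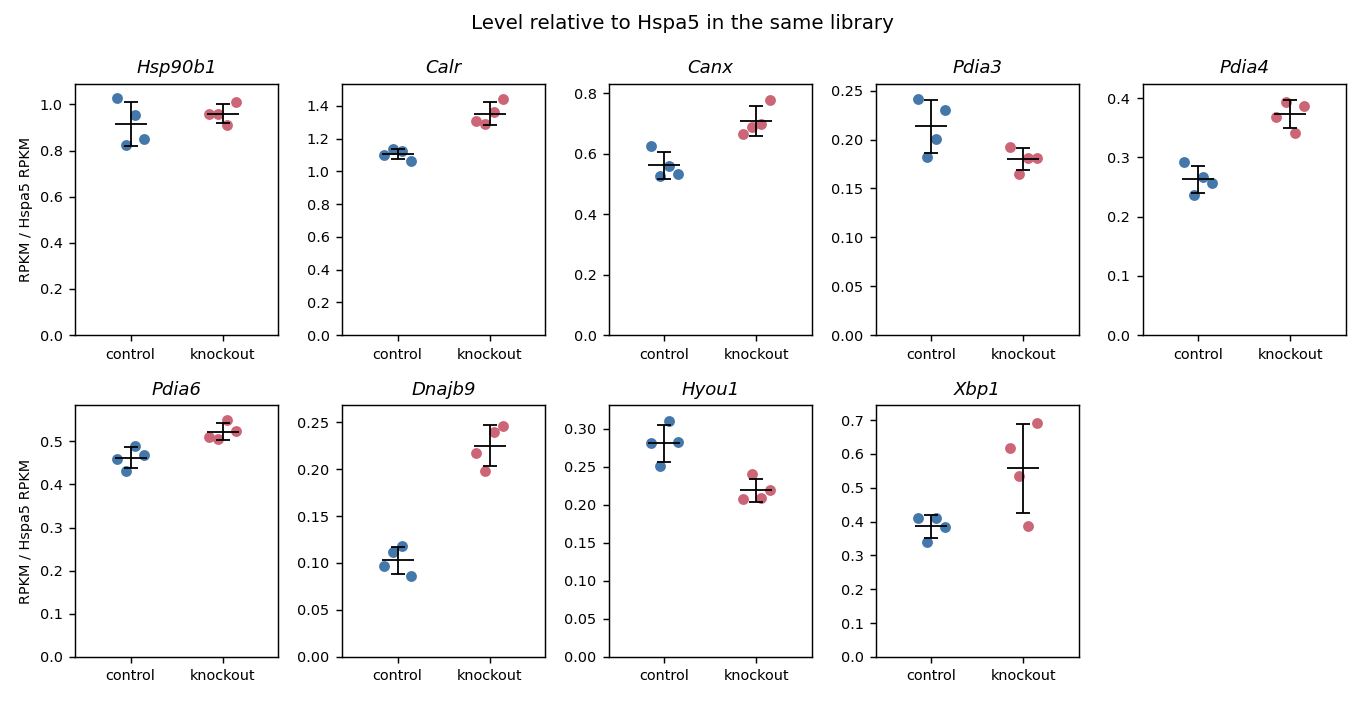
RPKM of each gene divided by the RPKM of Hspa5 in the same library (y axis, no unit, from 0) in 4 control and 4 knockout libraries; points are libraries, long bars the mean, whiskers the SD. Dnajb9, Pdia4, Canx, Calr and Pdia6 lie higher and Hyou1 lower in all knockout libraries.

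Ratios within 3 functional pairs are given as values only, since the pairs were chosen after the values were seen and from genes with differences of opposite sign. Pdia3 relative to Calr was 0.160 to 0.220 in control and 0.126 to 0.147 in knockout libraries, and relative to Canx 0.345 to 0.432 and 0.233 to 0.290. Hyou1 relative to Dnajb9 went from 2.77 ± 0.440 to 0.983 ± 0.159 (SD, n = 4 each). It was 2.25 to 3.29 in control and 0.872 to 1.22 in knockout libraries, below 1 in 3 of the 4 knockouts.

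The library with the highest or lowest value within its genotype was counted over the 10 genes. The same count over all genes was not made, so no trait of these genes is read from it. Knockout replicate 4 held the highest of the 4 knockout values in 6 of the 10 genes and replicate 20 the lowest in 7. Among the controls, replicate 12 held the lowest value in 5 genes and the highest in 3, and no replicate led more than 3. The CV over libraries was 3.88% to 15% in control and 4.32% to 21.2% in knockout.

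Other genes of the ER folding system were counted by list. Of 27 other folding enzymes and co-chaperones tested, 5 were higher and 5 lower, with a median log2 fold change of 0.02. Over all genes 19.4% were called higher and 15.9% lower, the background for this and each later list count under TMM scaling. Creld1, an ER protein with EGF-like domains, rose from 6.85 ± 1.06 to 13.3 ± 0.826 RPKM (SD, n = 4 each). Fkbp7, a prolyl isomerase of the ER, fell from 5.23 ± 0.725 to 2.79 ± 0.214 RPKM, and Erp44, which retrieves unfinished proteins from the Golgi, from 4.81 ± 0.278 to 3.11 ± 0.414 RPKM. These 3 had limma adjusted p of at most 0.00105 and were called under all 3 scalings. P4hb, Txndc5, Creld2 and Fkbp9 completed the rises and Tmx4, Hspa13 and Prdx4 the falls. Sil1, the other exchange factor of BiP, named after its values were seen, went from 5.09 ± 0.782 to 6.03 ± 0.540 RPKM without passing (limma, adjusted p = 0.125).

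In the lectin cycle and glycan trimming, 3 of 9 were higher and 1 lower. Mlec (malectin), which binds glucosylated glycans, rose from 8.59 ± 1.07 to 11.9 ± 1.17 RPKM under every scaling. Mogs, the first trimming glucosidase, rose from 1.76 ± 0.189 to 2.32 ± 0.264 RPKM, while Lman1, a cargo receptor for export from the ER, fell from 8.69 ± 0.613 to 6.88 ± 0.225 RPKM (SD, n = 4 each; limma, adjusted p = 0.0230 and adjusted p = 0.00614). Mogs was not called with the listed-gene sum, nor Lman1 with the library total alone.

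Among 11 sensors and regulators of the unfolded protein response, 2 were higher, with a median log2 fold change of -0.12. Rtcb, the ligase that rejoins Xbp1 mRNA after IRE1 has cut it, rose from 11.8 ± 0.782 to 14.2 ± 0.527 RPKM, and Nfyb, a subunit of the factor that binds CCAAT boxes, from 1.03 ± 0.0946 to 1.39 ± 0.0694 RPKM (SD, n = 4 each; limma, adjusted p = 0.0143 and adjusted p = 0.0168). Neither was called with the listed-gene sum, under which 5 of the 11 were lower, beside 30.2% of all genes. The sensors themselves did not pass: Ern1 (IRE1) stood at 1.11 and 0.943 RPKM, Eif2ak3 (PERK) at 1.68 and 1.32 RPKM and Atf6 at 3.96 and 3.58 RPKM in control and knockout. Creb3l2, an ER-membrane factor that is cut free like ATF6, was at 1.52 and 1.14 RPKM and did not pass (limma, adjusted p = 0.0748).

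ER-associated degradation, which returns misfolded proteins to the cytosol, had 5 of 24 higher and 3 lower. Edem1, a lectin that marks misfolded glycoproteins for removal, rose from 4.14 ± 0.181 to 5.62 ± 0.197 RPKM, and Nploc4, a cofactor of the extraction motor, from 4.03 ± 0.0875 to 5.15 ± 0.196 RPKM. Erlec1, another lectin of this route, fell from 1.90 ± 0.309 to 1.23 ± 0.0850 RPKM (SD, n = 4 each; limma, adjusted p = 0.000907, adjusted p = 0.00283 and adjusted p = 0.00573). Edem1 and Nploc4 were called under all 3 scalings, Erlec1 not with the library total alone. Of 20 genes of the translocation channel through which proteins enter the ER, 2 were higher and 2 lower. Sec62 rose from 4.84 ± 0.293 to 6.82 ± 0.465 RPKM and Sec11c, a subunit of the signal peptidase, fell from 6.96 ± 0.715 to 4.2 ± 0.539 RPKM, both under all 3 scalings. Ssr2, a subunit of the translocon-associated complex, fell from 10.5 ± 0.616 to 7.71 ± 0.953 RPKM, and was not called with the library total alone.

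Of 10 genes of the integrated stress response tested, the branch downstream of PERK and related kinases, 3 were higher and 1 lower. Atf4 rose from 7.68 ± 0.710 to 11 ± 0.844 RPKM and Asns, an asparagine synthetase driven by ATF4, from 7.61 ± 0.446 to 11.7 ± 1.30 RPKM. Nupr1 fell from 12.9 ± 2.66 to 8.07 ± 0.984 RPKM (SD, n = 4 each; limma, adjusted p at most 0.00493 for these 3, under all 3 scalings at most 0.0181). Ddit3 (CHOP), a late factor of ER stress, named after its values were seen, was 8.63 in the controls and 7.33 RPKM in the knockouts without passing (limma, adjusted p = 0.297). Trib3, the remaining rise, went from 0.916 ± 0.190 to 1.84 ± 0.660 RPKM (limma, adjusted p = 0.0189). Atf3, Chac1 and Sesn2 did not reach the filter and were not tested. Their levels were 0.221 ± 0.125, 0.239 ± 0.0865 and 0.404 ± 0.0956 RPKM in control. In knockout they were 0.523 ± 0.104, 0.814 ± 0.390 and 1.13 ± 0.403 RPKM. Untested genes of the other folding enzymes went both ways. Pdia5 went from 0.864 ± 0.112 to 0.234 ± 0.107 RPKM and Sdf2l1 from 0.355 ± 0.0244 to 0.664 ± 0.224 RPKM.

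**Figure D5:**
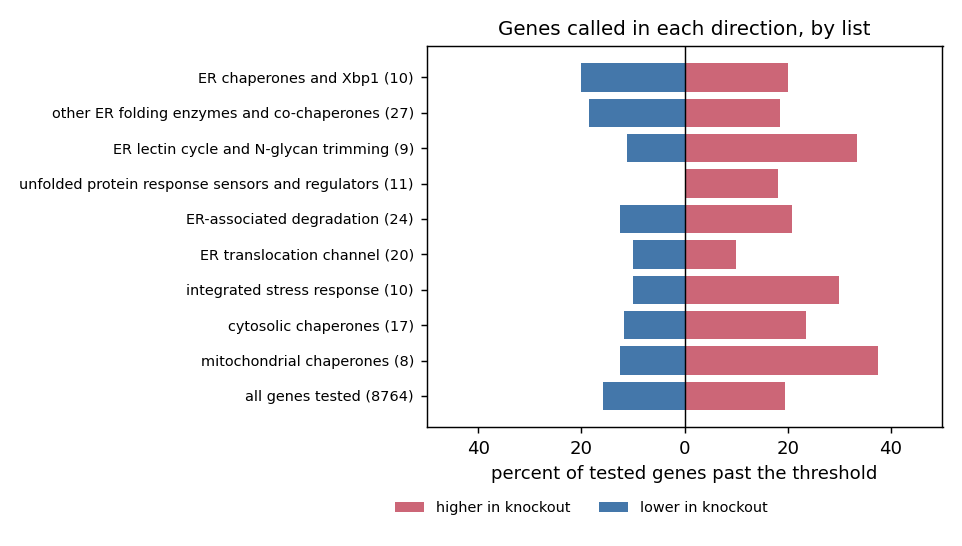
Percent of tested genes called higher (right) or lower (left) in the knockout, for each list and for all 8764 genes tested; the number tested stands in parentheses. The 10 genes followed here, Xbp1 included, had 20% called in each direction, beside 19.4% and 15.9% of all genes.

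Markers of other cell types were compared in the same libraries, since a change in the cells of the depot and a change per cell cannot be told apart in bulk RNA. Macrophage markers were higher: 9 of 10 tested were called higher, and the sum of the 12 listed was 43.3 to 55.7 in the controls and 85.6 to 102.6 RPKM in knockout libraries. Lyz2, lysozyme, rose from 21.1 ± 2.32 to 38.3 ± 1.21 RPKM and C1qb, a complement component, from 6.00 ± 1.00 to 12.2 ± 2.69 RPKM (SD, n = 4 each). Of 11 brown adipocyte markers 5 were higher (Cidea, Elovl3, Adipoq, Fabp4 and Plin1) and 3 lower (Ucp1, Cox7a1 and Ppargc1a). The sum of all 11 was 3216 to 3658 RPKM in control and 5237 to 6166 RPKM in knockout. Without Fabp4 the other 10 summed to 1554 to 1915 RPKM in control and 1510 to 1720 RPKM in knockout, with overlap. Fabp4 was left out after its value was seen, and this sum joins markers called higher with markers called lower. Fabp4, the fatty acid binding protein of adipocytes, rose from 1698 ± 59.8 to 3985 ± 392.6 RPKM. Plasma cells carry much ER, and of their 10 markers and those of B cells 4 were listed and 1 was tested, with sums of 2.26 to 3.20 RPKM in control and 4.73 to 6.81 RPKM in knockout. Igj, the immunoglobulin joining chain, stood at 0.530 ± 0.171 and 0.560 ± 0.208 RPKM, and Mzb1 and Tnfrsf17 were not among the listed genes. Sdc1 stood at 0.599 ± 0.143 and 0.446 ± 0.0102 RPKM and Cd79a at 0.461 ± 0.329 and 0.441 ± 0.283 RPKM. The tested one, Irf4, which adipocytes and macrophages also express, rose from 1.25 ± 0.0775 to 4.32 ± 0.704 RPKM, and the higher sum came from Irf4. Fibroblast markers had 2 of 9 higher, and their sum spanned 84.7 to 131.6 RPKM in control and 104.7 to 160.0 RPKM in knockout. Dpt, a matrix protein, rose from 7.68 ± 1.63 to 23.8 ± 5.25 RPKM (limma, adjusted p = 0.000117) and Pdgfra, a receptor of mesenchymal cells, from 1.62 ± 0.210 to 2.11 ± 0.224 RPKM (limma, adjusted p = 0.0353). The most abundant were Col3a1 at 34.7 ± 5.63 and 39.2 ± 8.57 RPKM and Dcn at 31.3 ± 4.81 and 35.1 ± 4.08 RPKM, neither of which passed. Endothelial markers had 2 of 9 lower, and their sum spanned 93.8 to 115.5 RPKM in control and 81.4 to 103.5 RPKM in knockout. Cdh5, at 21.6 ± 3.41 and 17.2 ± 0.993 RPKM, was called lower, but not with the library total alone (log2 fold change -0.13). Cldn5 was the other one called lower, at 6.11 ± 0.980 and 3.98 ± 0.745 RPKM (limma, adjusted p = 0.00817). With the library total alone 0 of the 9 were called in either direction. Egfl7 at 21.6 ± 2.73 and 18.4 ± 3.31 RPKM did not pass. No skeletal muscle marker of 8 was listed. The part of these cells in the chaperone values was not tested.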

How the data were processed

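Total RNA of brown fat was made into 8 libraries with a TruSeq RNA kit and sequenced, per the labels' protocols. Per the submitters' processing notes, TopHat2, featureCounts and edgeR were used with mouse build mm9; their versions, settings, strand use and gene filter were not given in the sources. The authors' table holds, per the file headers, RPKM of each library. It also has the authors' log2 fold change, p-value, FDR and mean log2 CPM of each gene, as deposited. The deposited RPKM are whole reads over gene length and library total (100% of values within 0.001 reads; in 20 genes a common divisor of the reads was restored from the mean log2 CPM), with 2738475 to 4170688 reads on listed genes. Errors given from read numbers cover counting error only.

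TMM factors (trim 0.3 of log ratios, 0.05 of means) were computed on those reads. Genes whose deposited RPKM averaged 1 or more were tested with limma 3.58.1 (R 4.3.3), trend, pseudocount 1, two-sided; the method was tested on simulated counts. Tables and figures used Python 3.11.15, matplotlib 3.10.9, pandas 2.3.3 and numpy 2.4.6. Printed means and SD refer to RPKM after TMM scaling.

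The 10 genes, the lists and the tests were chosen with earlier results of these data known. Named genes are the 10 and Hdac3, the 3 members of each other list with the smallest adjusted p, and the 2 highest markers of each cell type; all other genes named and the 3 pair ratios were added after their values were seen. Alternatives were RLE factors, the library total alone, the listed-gene sum, no filter, a pseudocount of 0.1, limma voom on the recovered reads, the authors' FDR and leaving out each library. The counting of reads shared by overlapping or similar genes was not given in the sources.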

Additional observations from a re-analysis of the deposited data

Results flagged for a closer look

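In 4 of 90 groups of 4 libraries examined over the named genes, a single library lay well apart from the other 3; about 4.5 such groups would arise by chance. Knockout replicate 19 had 13.7 RPKM of Mlec, and the other knockouts 11.1 to 11.5 RPKM. Dcn stood at 29.0 RPKM in the same library, against 36.4 to 37.7. Nploc4 stood at 4.16 RPKM in control replicate 12, against 3.98 to 4.00 in the other controls. Erlec1 stood at 2.36 RPKM in control replicate 13, against 1.70 to 1.81. None of the 10 genes followed here was among these.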

How the results depend on the processing

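Dnajb9 and Hyou1 kept their direction and their call in all 15 alternatives, with log2 fold changes of 0.63 to 0.96 and -0.60 to -0.30, and Hdac3 did the same with -1.24 to -0.87. Pdia3 and Pdia4 each lost the call in 1 of 15, Pdia3 with the library total alone (-0.19) and Pdia4 with the listed-gene sum (0.15). Leaving out single libraries gave limma adjusted p from 0.00832 to 0.0486 for Pdia3, at its highest just under the threshold. For Pdia4 the limma adjusted p ran from 0.00769 to 0.0313. Scaling moved the counts most. With the library total alone 5 genes of the 10 were higher and 1 lower, and over all genes 2796 and 628. With the listed-gene sum the counts were 1 and 4, and 1087 and 2651, against 2 and 2, and 1703 and 1391, under TMM. The directions of genes near 0 turned with it: Hspa5 to 0.0062 and Hsp90b1 to 0.0787 with the library total alone, and Calr to -0.0468, Canx to -0.0035 and Pdia6 to -0.15 with the listed-gene sum. Pdia6 also turned with RLE factors (-0.0049), in the authors' deposited table (-0.0106) and without single libraries, where it ranged from -0.0412 to 0.0597. Without each library in turn, 2 to 3 of the 10 were higher and 2 to 2 lower, and over all genes 1430 to 1563 higher and 1165 to 1319 lower. The 3 were reached without knockout replicate 19, where Xbp1 was added. No paired analysis was possible because the control and knockout libraries share no replicate number. Depth limits Dnajb9 most, at 66 reads in its lowest library.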

Other observations

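The ER stress element was found in the promoter of 13 genes tested. Of these, 5 were called higher and 0 lower, where 19.4% and 15.9% of all genes were called. In either direction 38.5% were called, beside 35.3% of all genes. Of the 13, 5 were among the 10 described above. None of those 5 passed the test under TMM scaling. Of the other 8, 5 were higher in the knockout and 3 did not pass, a split made after the values were seen. Creld2, an ER protein induced by ER stress, rose from 1.19 ± 0.141 to 2.1 ± 0.352 RPKM, and Alg12, a mannosyltransferase of N-glycan synthesis, from 1.07 ± 0.0727 to 1.45 ± 0.136 RPKM (SD, n = 4 each; limma, adjusted p = 0.00204 and adjusted p = 0.0179). Acacb, an acetyl-CoA carboxylase of mitochondria, rose from 31.9 ± 3.10 to 57.9 ± 5.83 RPKM. Adcy3, an adenylyl cyclase, and Hnrnpa3 were the remaining rises. Dnajc3 and Syvn1, both of the unfolded protein response, stood at 4.02 and 4.29 RPKM and at 1.09 and 1.24 RPKM and did not pass, nor did Pan2. A match of letters is a description of the window.

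Chaperones of other compartments were also mixed. Of 17 cytosolic chaperones, 4 were higher and 2 lower: St13, a cofactor of Hsp70, rose from 20.6 ± 1.68 to 35.2 ± 3.29 RPKM, Dnajb6 from 5.39 ± 0.0627 to 7.95 ± 0.476 RPKM, and Cryab, a small heat shock protein, fell from 7.99 ± 3.43 to 2.07 ± 0.523 RPKM. Of 8 mitochondrial chaperones and proteases, 3 were higher and 1 lower. Hspe1, the lid of the mitochondrial chaperonin, rose from 28.0 ± 3.63 to 45.1 ± 5.99 RPKM and Grpel1, the exchange factor of mitochondrial Hsp70, from 10.6 ± 1.42 to 14.8 ± 1.15 RPKM. Trap1, the Hsp90 of mitochondria, fell from 35.6 ± 2.59 to 22.2 ± 1.35 RPKM (SD, n = 4 each). These 6 had limma adjusted p of at most 0.00504 and were called under all 3 scalings.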
